A study of Homo sapiens with 20 samples.

Results

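The 9 circadian clock genes *PER1*, *PER2*, *PER3*, *CRY1*, *CRY2*, *NR1D1*, *NR1D2*, *BHLHE40* and *DBP* and the clock output gene *NOCT* were followed in RNA-seq libraries of 4 lung cancer cell lines after *ADAR* knockout (KO) and, in 1 line, after interferon-β (IFN-β). These 10 genes, of 58233 gene identifiers counted, were chosen by name because several of them, with *PER1*, *NOCT* and *NR1D1* in front, were higher in the *ADAR* KO libraries described here. Their differences after *ADAR* KO and after IFN-β are therefore a description, and no p-value is printed for them. Where the text says which of them were past the test threshold, this too is a description, and nothing is read from it. Tests are given for the levels of the 10 genes between cell lines, which played no part in the choice, and for 21 other clock genes.

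The circadian clock is a transcriptional feedback loop. The activators CLOCK and BMAL1 (encoded by *ARNTL*) bind E-box sequences and switch on the *PER* and *CRY* genes, whose proteins return to the nucleus and repress that activation, while the REV-ERB receptors (*NR1D1*, *NR1D2*) repress *ARNTL* and BHLHE40 competes for E-boxes. DBP is an activator that reads D-box sequences, and *NOCT* encodes nocturnin, a rhythmic phosphatase of NADPH that resembles deadenylases. Several of these genes, *PER1* among them, are also known to respond within hours to signals such as serum, glucocorticoid and cAMP.

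*ADAR* encodes ADAR1, which converts adenosine to inosine in double-stranded RNA. HCC366 (lung adenosquamous carcinoma), NCI-H1650 (lung adenocarcinoma) and NCI-H196 (a variant small cell lung cancer) need ADAR1 to survive, and A549 (lung adenocarcinoma) does not. All cells carried Cas9 and an sgRNA, against *GFP* in controls, a gene that human cells lack, or against *ADAR*. Each target had 2 different sgRNAs (sg1 and sg2) with 1 library each, so the replicates are sgRNAs in transduced populations, nothing says that they were cultured separately beyond that, and the spread between them may be partly technical. The 3 ADAR1-dependent cell lines were untreated, with RNA taken 5 days after lentiviral transduction. A549 cells received IFN-β at 10 ng/mL or vehicle (sterile water) for 24 h, which gives 10 conditions and 20 libraries. Each condition was sampled at a single time, so the values are levels and not rhythms, and the hour of collection is not given in the sources used here.

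The reads assigned to genes ran from 62679 (NCI-H196 with GFP sg2) to 19520189 (A549 with ADAR sg2 and IFN-β), with a median of 6411279. In the NCI-H196 GFP sg2 library 1 read equals 14.7 CPM (reads scaled to the library total), and a count of 0, taken as at most 3 reads, allows up to 44 CPM. In the HCC366 ADAR sg2 library 85.6% of the reads were not uniquely placed, against 22.5% to 59.1% in the other 19 libraries. *ADAR* mRNA was lower in both *ADAR* KO libraries than in both controls in all 5 comparisons, with log2 fold changes of -0.84 for HCC366 (adjusted p = 0.208), -1.29 for NCI-H1650 (adjusted p = 6.63e-14), -0.41 in NCI-H196 (adjusted p = 0.00165), -1.08 in A549 with vehicle (adjusted p = 9.98e-05) and -0.60 in A549 with IFN-β (adjusted p = 0.00148). Among lineage markers in control cells, the keratins *KRT8* and *KRT18* stood at 882 to 2705 CPM in HCC366, NCI-H1650 and A549 and at 20.9 to 40.5 CPM in NCI-H196, while *EPCAM*, also epithelial, stood at 97.4 and 98.1 CPM in NCI-H1650 and at no more than 1.87 CPM in the other lines. Of the neuroendocrine markers, *NEUROD1* and *INSM1* had 0 reads in every line, and *SYP* stood at no more than 3.75 CPM. *CHGA*, also neuroendocrine, stood at 11.3 and 15.2 CPM in NCI-H1650 and at no more than 4.29 CPM in the other lines. The lung adenocarcinoma markers *NKX2-1* and *SFTPC* had at most 1 read in any line, and *NAPSA* stood at no more than 4.29 CPM. Of the squamous markers, *KRT5* had 1 read in HCC366 and stood at no more than 2.96 CPM in any line. *TP63*, also squamous, stood at 13.7 and 41.8 CPM in NCI-H196 and at no more than 3.40 CPM in the other lines. The marker values are scaled over all 20 libraries, so 14.7 CPM a read does not apply to them. In the shallow NCI-H196 GFP sg2 library *TP63*, *KRT8* and *KRT18* rest on few reads. The mesenchymal marker *VIM* ran from 5.72 CPM in HCC366 to 2277 CPM in NCI-H196.

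*PER1*, the PER gene best known for rapid induction, was higher in both *ADAR* KO libraries of each ADAR1-dependent cell line. In HCC366 it stood at 42.6 and 38.4 CPM with GFP sg1 and sg2 and at 150 and 281 CPM with ADAR sg1 and sg2. In NCI-H1650 the values were 28.4 and 27.2 CPM in controls and 61.8 and 61.9 CPM after *ADAR* KO. In NCI-H196 they were 21.6 and 29.3 CPM, the latter from 2 reads, and 68.0 and 69.8 CPM. The control and *ADAR* KO libraries did not overlap in any of these lines, and the log2 fold change was 2.42 (SE 0.40) for HCC366, 1.15 (SE 0.14) for NCI-H1650 and 1.67 (SE 0.16) for NCI-H196. In A549 *PER1* was at 13.3 and 13.1 CPM in controls with vehicle, 14.3 and 13.7 CPM after *ADAR* KO with vehicle, 13.8 and 15.8 CPM in controls with IFN-β, and 84.4 and 110 CPM after *ADAR* KO with IFN-β. The cells with both *ADAR* KO and IFN-β stood apart from the other 3 A549 groups, 6.55-fold above the IFN-β-treated controls (log2 2.71, SE 0.15).

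*NOCT* was also higher in both *ADAR* KO libraries of each dependent line. It stood at 104 and 92.5 CPM in HCC366 controls against 476 and 567 CPM after *ADAR* KO, and at 146 and 132 CPM in NCI-H1650 controls against 286 and 352 CPM. In NCI-H196 the controls were at 37.9 and 73.3 CPM, the latter from 5 reads, and the *ADAR* KO libraries at 97.5 and 90.6 CPM. The log2 fold changes were 2.41 (SE 0.32), 1.20 (SE 0.11) and 1.26 (SE 0.14), and the last fell to 0.33 when the NCI-H196 GFP sg1 library was left out, which leaves only the shallow control. A549 held 24.0 and 26.8 CPM in controls with vehicle, 31.8 and 29.1 CPM after *ADAR* KO with vehicle, 30.7 and 28.9 CPM in controls with IFN-β, and 165 and 225 CPM with both. The difference between *ADAR* KO and control cells under IFN-β was 6.56-fold (log2 2.71, SE 0.13), against a log2 fold change of 0.25 (SE 0.15) under vehicle.

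*NR1D1*, which encodes REV-ERBα, had the highest log2 fold change of the 10 genes in HCC366, NCI-H1650 and NCI-H196. It stood at 17 and 11.5 CPM in HCC366 controls and at 77.9 and 138 CPM after *ADAR* KO (log2 2.97, SE 0.45). In NCI-H1650 it was at 18.7 and 16.2 CPM against 35.7 and 45.9 CPM (log2 1.21, SE 0.17). NCI-H196 controls held 27.6 CPM with GFP sg1 and 0 reads with GFP sg2, against 136 and 149 CPM after *ADAR* KO, and the log2 fold change was 2.42 (SE 0.13) with all libraries and 2.40 (SE 0.13) without the shallow one. In A549 controls it stood at 8.31 and 8.43 CPM with vehicle and at 13.2 and 12.6 CPM with IFN-β. *ADAR* KO cells held 11.0 CPM with either sgRNA under vehicle and 65.2 and 85.0 CPM with IFN-β (log2 2.55, SE 0.16, against IFN-β-treated controls). *NR1D1* was higher in both libraries given either condition alone than in both vehicle-treated controls (log2 0.39, SE 0.19, for *ADAR* KO and 0.62, SE 0.18, for IFN-β). *PER1* and *NOCT* had the same order, *PER1* by a narrow margin (13.7 to 15.8 against 13.1 and 13.3 CPM). In the dependent lines 25.1% to 26.2% of all genes had both libraries higher, so nothing is read from this order. *NR1D1* shares 473 bases, 18% of its exon length, with *THRA* on the opposite strand. *THRA*, the thyroid hormone receptor α gene, had log2 fold changes of 0.84 (adjusted p = 0.318), 0.16 (adjusted p = 0.738) and -0.01 (adjusted p = 0.987) in HCC366, NCI-H1650 and NCI-H196, and fell by 0.52 on the log2 scale (adjusted p = 0.0122) after *ADAR* KO in A549 with IFN-β, where *NR1D1* was higher.

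**Figure D1:**
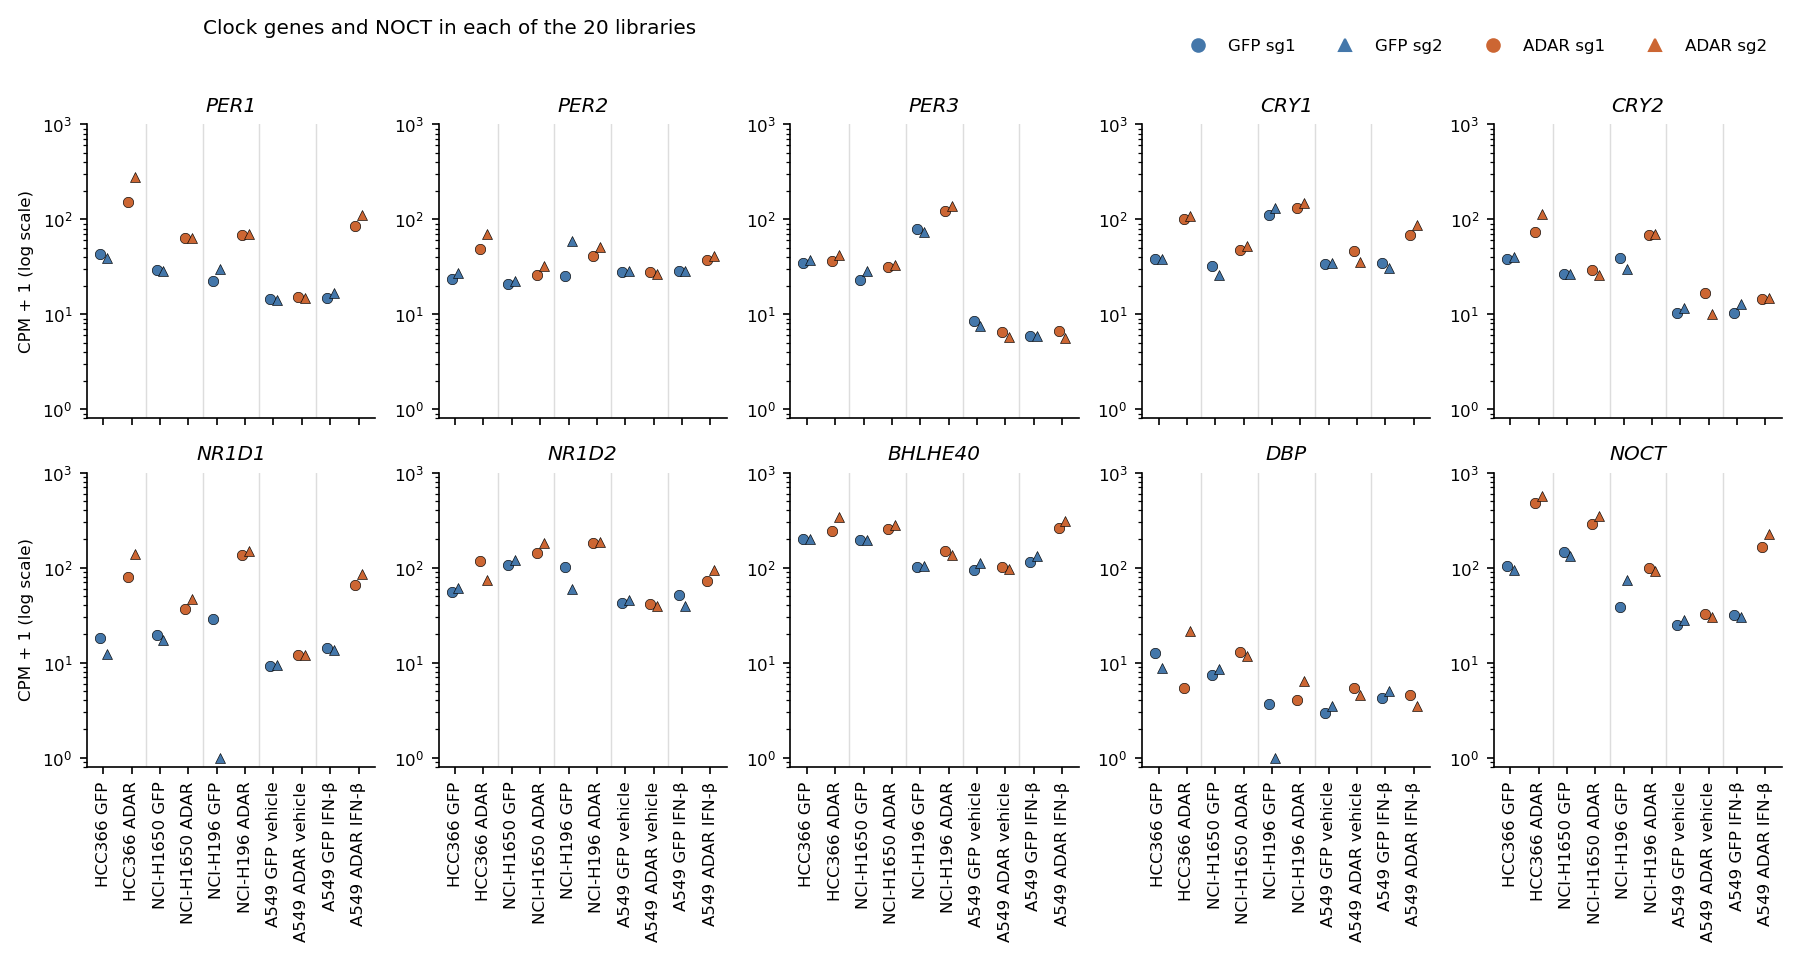
CPM + 1 on a common log scale (y axis) of the 10 genes in the 20 libraries (x axis, by condition); circles are sg1, triangles sg2, blue is GFP and orange ADAR. *PER1*, *NOCT* and *NR1D1* are higher in the orange points of HCC366, NCI-H1650, NCI-H196 and A549 with IFN-β, and the lone points at 1 are counts of 0 in the shallow NCI-H196 GFP sg2 library.

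The start regions of these genes are shown because the 3 genes had the largest differences, together with *NR1D2* and *PER2*, whose windows hold more of the motifs searched. All 10 genes matched the RefSeq promoter table (GRCh38.p14), which takes 250 bases before and 50 after each start, with 13 windows in all. Below, capitals mark the E-box (CACGTG), the D-box (TTANGTAA) and the cAMP response element core (TGACG), searched on both strands, and sequences are written 5′ to 3′ on the strand of the gene. *PER1* lies at chr17:8152355-8152654 (minus strand), *NOCT* at chr4:139015531-139015830 (plus), *NR1D1* at chr17:40100540-40100839 (minus), the downstream window of *NR1D2* at chr3:23945871-23946170 (plus) and *PER2* at chr2:238288561-238288860 (minus).
PER1: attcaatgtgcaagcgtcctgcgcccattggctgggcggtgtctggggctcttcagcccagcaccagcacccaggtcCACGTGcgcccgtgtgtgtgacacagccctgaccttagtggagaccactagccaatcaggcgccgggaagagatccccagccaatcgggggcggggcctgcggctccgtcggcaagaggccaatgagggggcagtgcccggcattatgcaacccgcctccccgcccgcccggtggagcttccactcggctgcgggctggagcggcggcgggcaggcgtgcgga
NOCT: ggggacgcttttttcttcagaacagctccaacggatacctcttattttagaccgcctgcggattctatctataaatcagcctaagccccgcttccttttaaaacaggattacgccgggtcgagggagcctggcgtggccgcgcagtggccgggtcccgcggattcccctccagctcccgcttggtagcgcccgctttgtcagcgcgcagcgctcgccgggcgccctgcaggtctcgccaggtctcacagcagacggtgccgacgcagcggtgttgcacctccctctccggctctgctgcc
NR1D1: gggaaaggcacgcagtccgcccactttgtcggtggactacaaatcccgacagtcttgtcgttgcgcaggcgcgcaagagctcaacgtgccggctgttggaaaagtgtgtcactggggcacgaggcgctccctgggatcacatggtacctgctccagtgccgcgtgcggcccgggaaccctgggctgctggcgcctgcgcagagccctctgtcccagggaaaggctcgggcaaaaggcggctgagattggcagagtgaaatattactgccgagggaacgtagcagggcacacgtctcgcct
NR1D2: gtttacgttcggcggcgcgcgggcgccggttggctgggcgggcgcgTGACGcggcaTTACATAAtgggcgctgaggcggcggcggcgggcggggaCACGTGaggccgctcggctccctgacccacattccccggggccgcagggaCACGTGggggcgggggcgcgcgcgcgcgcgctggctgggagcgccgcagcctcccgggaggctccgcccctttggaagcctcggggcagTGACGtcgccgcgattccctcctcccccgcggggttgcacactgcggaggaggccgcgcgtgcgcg
PER2: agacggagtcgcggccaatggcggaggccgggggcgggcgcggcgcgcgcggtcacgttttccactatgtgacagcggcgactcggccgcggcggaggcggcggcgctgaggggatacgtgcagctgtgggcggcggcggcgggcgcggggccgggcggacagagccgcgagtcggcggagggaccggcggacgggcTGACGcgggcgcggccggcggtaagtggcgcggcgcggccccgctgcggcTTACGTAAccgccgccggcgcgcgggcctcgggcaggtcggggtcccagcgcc

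The *PER1* window holds 1 E-box, from base -173 to -168 counted from the start, and the *NR1D2* window holds 2, from -155 and from -105. *BHLHE40* has an E-box from -245. An E-box occurs in 7.26% of the 35116 promoter windows in the table, so its presence in 3 of these 10 genes is a description of the sequence only. D-boxes, found in 2.18% of windows, occur in *PER2* across its start (from -3), in *PER3* (from -177) and in *NR1D2* (from -194). The core TGACG, present in 24.6% of windows, occurs in *PER2*, *NR1D2*, *CRY1* and *CRY2*, and a REV-ERB and ROR element (TAGGTCA, 1.85% of windows) occurs in *CRY2*. The windows of *NOCT*, *NR1D1* and *DBP* hold none of the 8 motifs searched. No window of the 10 genes holds the full cAMP response element TGACGTCA (1.85% of windows), the AP-1 element TGANTCA (7.71%), the CEBP-ATF element TGATGNAA (3.62%) or the interferon-stimulated response element in its short form (3.57%), which says only that these letters are not in these 300 bases.

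The other repressors of the PER and CRY families had smaller differences. *PER2* stood at 22.5 and 26.4 CPM in HCC366 controls and at 48.1 and 69.8 CPM after *ADAR* KO (log2 1.26, SE 0.37), and at 20.1 and 21.5 against 24.7 and 31.6 CPM in NCI-H1650 (log2 0.43, SE 0.17). In NCI-H196 the groups overlapped, with 24.4 CPM and 58.6 CPM (4 reads) in controls against 40.6 and 50.4 CPM, and the log2 fold change of 0.97 (SE 0.17) became 0.98 (SE 0.16) without the shallow library and -0.26 without GFP sg1. *CRY1* stood at 37.2 CPM in both HCC366 controls against 99.7 and 109 CPM (log2 1.48, SE 0.34), at 31.5 and 24.8 against 46.8 and 51.2 CPM in NCI-H1650 (log2 0.79, SE 0.15), and at 110 and 132 against 132 and 148 CPM in NCI-H196 (log2 0.38, SE 0.11). These groups did not overlap in HCC366 and NCI-H1650. In NCI-H196 the upper control, from 9 reads at 14.7 CPM a read, and the lower *ADAR* KO library nearly touched, so their order is not settled. *CRY2* differed between the lines, with a log2 fold change of 1.29 (SE 0.37) in HCC366, 0.87 (SE 0.15) in NCI-H196 and 0.06 (SE 0.16) in NCI-H1650, where 25.8 and 25.6 CPM in controls overlapped with 28.4 and 25 CPM after *ADAR* KO. *PER3* went from 78.0 and 73.3 (5 reads) to 121 and 138 CPM after *ADAR* KO in NCI-H196 (log2 0.78, SE 0.11). In HCC366 its groups overlapped (34.1 and 36.4 against 35.0 and 40.7 CPM, log2 0.10, SE 0.35).

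*NR1D2*, which encodes REV-ERBβ, was higher in both *ADAR* KO libraries of each dependent line, by less than *NR1D1*. It went from 55.0 and 60.7 to 117 and 73.1 CPM in HCC366 (log2 0.71, SE 0.37), from 105 and 118 to 141 and 181 CPM in NCI-H1650 (log2 0.53, SE 0.11) and from 101 and 58.6 (4 reads) to 183 and 186 CPM in NCI-H196 (log2 0.89, SE 0.11). *BHLHE40* had a log2 fold change of 0.55 (SE 0.32), 0.47 (SE 0.10) and 0.45 (SE 0.11) in HCC366, NCI-H1650 and NCI-H196, without overlap between groups. Its NCI-H196 control with GFP sg2, at 103 CPM, rests on 7 reads. In NCI-H1650, for example, it stood at 193 CPM in both controls and at 257 and 278 CPM after *ADAR* KO. *DBP*, the activator of the set, was low throughout, with 2.68 to 20.7 CPM in the libraries of these lines that had any read, and in HCC366 its 4.37 and 20.7 CPM after *ADAR* KO lay on both sides of the controls at 11.6 and 7.74 CPM. Its log2 fold change there, 0.49 (SE 0.63), became -1.01 without ADAR sg2.

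By edgeR's quasi-likelihood test with an adjusted p under 0.05 over all genes, 3 of the 10 genes were past the threshold after *ADAR* KO in HCC366 (*PER1*, *NR1D1* and *NOCT*), where 1.2% of all genes were and higher, 6 in NCI-H1650 (these 3 with *CRY1*, *NR1D2* and *BHLHE40*), where 6.18% were, and 9 in NCI-H196 (all but *DBP*), where 10.3% were. All of them were higher. Since these contrasts chose the genes, nothing is read from the counts. Both *ADAR* KO libraries lay above both controls for 8 of the 10 genes in HCC366, against 25.1% of all genes tested, for 9 in NCI-H1650 (26.2%) and for 9 in NCI-H196 (25.6%). The 9 in NCI-H196 include *DBP*, at 3.05 and 5.40 CPM after *ADAR* KO, whose 0 reads with GFP sg2 allow up to 44 CPM. They also include *CRY1*, whose GFP sg2 control (9 reads) and lower *ADAR* KO library both stood at 132 CPM when rounded. In HCC366 and NCI-H196 the genes past the threshold changed widely with the library left out. The number of all genes past it changed as well. Without HCC366 ADAR sg2, the library with few uniquely placed reads, the log2 fold changes were 1.93 for *PER1*, 2.57 for *NR1D1* and 2.31 for *NOCT*. Those of *PER3* (-0.003) and *DBP* (-1.01) lay below 0. Without the shallow NCI-H196 GFP sg2 library they were 1.67 for *PER1*, 2.40 for *NR1D1* and 1.27 for *NOCT*. By DESeq2 0 of the 10 genes passed in NCI-H196, where 11 of 33120 genes did. The median log2 fold change of the 8 repressors (the PER, CRY and REV-ERB genes and *BHLHE40*) was 1.28 for HCC366, 0.50 for NCI-H1650 and 0.88 for NCI-H196, beside medians of -0.01, 0.01 and -0.00 over all genes tested.

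Averaged over the 3 dependent lines in 1 fit, the log2 fold change was 2.12 (SE 0.26) for *NR1D1*, 1.70 (SE 0.20) for *PER1* and 1.60 (SE 0.19) for *NOCT*. It lay between 0.37 (*PER3*) and 0.84 (*CRY1*) for the other 7 genes. The values of *NR1D1*, *PER1* and *NOCT* each exceeded those of 98.7% or more of all genes tested. Since the 10 genes were chosen on these libraries, nothing is read from these ranks or from the count that follows. In this fit 8 of the 10 genes were past the threshold, all higher, against 4.28% of all genes higher, and the count was 4 without HCC366 GFP sg1 or without NCI-H196 ADAR sg2 and 5 without NCI-H196 GFP sg1.

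**Figure D2:**
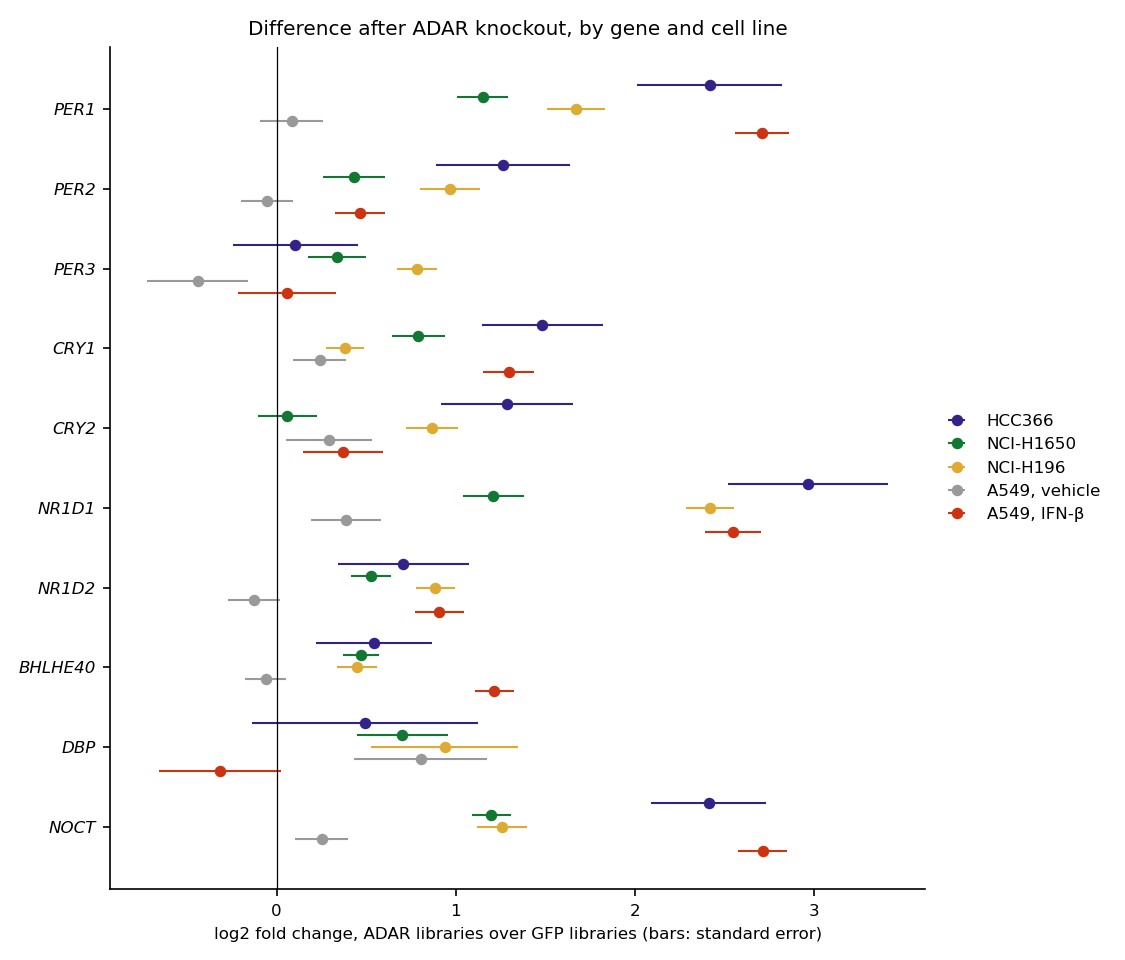
Log2 fold change of *ADAR* KO over control libraries (x axis, bars are the standard error) for the 10 genes (y axis) in the 5 comparisons, by color. *PER1*, *NR1D1* and *NOCT* lie between 1.15 and 2.97 in the 3 dependent lines and in A549 with IFN-β, and between 0.09 and 0.39 in A549 with vehicle.

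In A549 with vehicle *ADAR* KO gave log2 fold changes between -0.44 (*PER3*, SE 0.28) and 0.80 (*DBP*, SE 0.37), and their median over the 8 repressors was 0.02. None of the 10 genes passed, against 0.123% of all genes tested, with 1 at an unadjusted p under 0.05 and 0 by DESeq2. In IFN-β-treated A549 cells 7 of the 10 passed (*PER1*, *PER2*, *CRY1*, *NR1D1*, *NR1D2*, *BHLHE40* and *NOCT*), all higher, against 10.8% of all genes. As in the dependent lines, nothing is read from these counts. *CRY1* stood at 33.4 and 29.6 CPM in IFN-β-treated controls and at 67.4 and 85.9 CPM after *ADAR* KO (log2 1.30, SE 0.14). *BHLHE40* stood at 112 and 131 against 261 and 306 CPM (log2 1.22, SE 0.11), and *NR1D2* at 50.1 and 38.8 against 70.8 and 94.1 CPM (log2 0.91, SE 0.14). *PER2* moved least of the 7, from 27.8 and 27.7 to 36.6 and 39.9 CPM (log2 0.47, SE 0.14). *PER3*, at 4.58 to 5.67 CPM in the 4 IFN-β libraries, and *DBP*, at 2.50 to 4.04 CPM, overlapped between the groups.

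The effect of IFN-β was also taken within each sgRNA target. In control cells *NR1D1* alone of the 10 genes passed (log2 0.62, SE 0.18), against 4.39% of all genes higher, and it did not pass by DESeq2 or when any of the 4 control libraries, or the ADAR sg2 library with IFN-β, was left out. The other 9 genes had log2 fold changes from -0.52 (*PER3*) to 0.70 (*DBP*). In *ADAR* KO cells IFN-β gave log2 fold changes of 2.80 (SE 0.16) for *PER1*, 2.78 (SE 0.17) for *NR1D1*, 2.68 (SE 0.14) for *NOCT*, 1.53 (SE 0.11) for *BHLHE40*, 1.07 (SE 0.14) for *NR1D2*, 0.96 (SE 0.14) for *CRY1* and 0.54 (SE 0.14) for *PER2*. These 7 passed, all higher, against 15.5% of all genes higher. The difference between the 2 IFN-β effects, that is, their interaction with *ADAR* KO, was 2.63 (SE 0.23) for *PER1*, 2.46 (SE 0.20) for *NOCT* and 2.16 (SE 0.25) for *NR1D1* on the log2 scale. It was 1.28 (SE 0.16) for *BHLHE40*, 1.05 (SE 0.21) for *CRY1* and 1.03 (SE 0.20) for *NR1D2*, and these 6 genes passed, all positive, against 4.07% of all genes. These counts describe genes chosen on these libraries, and nothing is read from them. *DBP* had the only negative value, -1.12 (SE 0.51). These comparisons share libraries and are not independent of each other.

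**Figure D3:**
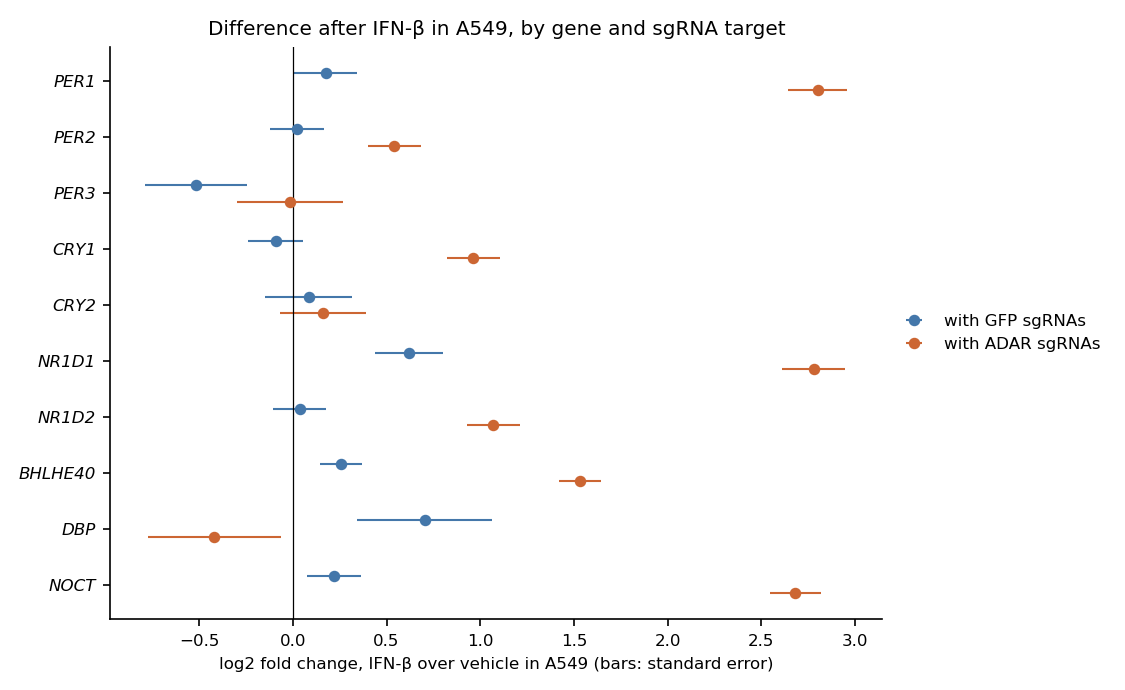
Log2 fold change of IFN-β over vehicle in A549 (x axis, bars are the standard error) for the 10 genes (y axis), in control cells (blue) and in *ADAR* KO cells (orange). The orange points of *PER1*, *NR1D1* and *NOCT* lie between 2.68 and 2.80 and their blue points between 0.18 and 0.62.

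The 21 other clock genes were listed by their known role in the clock, and 16 to 19 of them were measured well enough to test in a given comparison. NFIL3, a repressor of D-box promoters, rose in NCI-H1650, NCI-H196 and A549 with IFN-β. *NFIL3* stood at 37.3 and 31.3 CPM in NCI-H1650 controls against 52.7 and 80.7 CPM after *ADAR* KO (log2 0.95, adjusted p = 7.22e-06), at 42.3 and 14.7 (1 read) against 54.8 and 70.5 CPM in NCI-H196 (log2 0.68, adjusted p = 5.64e-05), and at 13.3 and 13.7 against 36.0 and 44.7 CPM in IFN-β-treated A549 (log2 1.59, adjusted p = 3.12e-08). *BHLHE41*, the paralog of *BHLHE40*, rose in the same 3 comparisons, by a log2 fold change of 1.32 (adjusted p = 0.000528) in NCI-H1650, 1.10 (adjusted p = 3.28e-06) in NCI-H196 and 1.98 (adjusted p = 0.0295) in A549 with IFN-β, where it had only 4 and 8 reads in controls and 14 and 39 reads after *ADAR* KO. *TEF*, a D-box activator related to *DBP*, rose in A549 with IFN-β (log2 1.16, adjusted p = 0.0133). It also passed in NCI-H196 (log2 1.55, adjusted p = 9.80e-16), where the groups overlapped, with 15.8 CPM and 44 CPM (3 reads) in controls against 39.6 and 49.2 CPM, and where the log2 fold change was 0.12 (adjusted p = 0.984) without GFP sg1.

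In NCI-H1650 only *NFIL3* and *BHLHE41* of 16 genes tested passed, against 6.18% of all genes higher. In NCI-H196 5 rose and 1 fell of 16, against 10.3% of all genes higher and 7.5% lower. Besides *NFIL3*, *BHLHE41* and *TEF*, those that rose were *CIART* (log2 1.27, adjusted p = 0.000118), a repressor of CLOCK and BMAL1, and the PER kinase gene *CSNK1D* (log2 0.56, adjusted p = 2.89e-06), while *ARNTL2*, a paralog of *ARNTL*, fell by 0.72 on the log2 scale (adjusted p = 1.28e-05). These 6 calls became fewer without NCI-H196 GFP sg1, ADAR sg1 or ADAR sg2, as did the calls among all genes. In HCC366 none of 17 passed, against 1.2% of all genes higher, with 6 at an unadjusted p under 0.05 and 0 by DESeq2. Some of the 17 passed when either ADAR library was left out. The number of all genes passing rose then as well. In A549 none of 17 passed with vehicle (1 at an unadjusted p under 0.05, 0 by DESeq2). With IFN-β 7 rose and none fell of 17, against 10.8% of all genes higher. Next to *NFIL3*, *BHLHE41* and *TEF* these were the activators *ARNTL* (log2 0.65, adjusted p = 0.0143), *CLOCK* (log2 0.46, adjusted p = 0.0433) and *ARNTL2* (log2 0.30, adjusted p = 0.0440) and the kinase gene *CSNK1A1* (log2 0.34, adjusted p = 0.0152). The 7 calls became fewer without the IFN-β-treated GFP sg2 or ADAR sg2 library, as did the calls among all genes. In the dependent lines *CLOCK* lay lower in both *ADAR* KO libraries than in both controls. In HCC366 it stood at 50.7 and 22.6 against 90.6 and 115 CPM (log2 -1.51, adjusted p = 0.143). The log2 fold changes were -0.33 (adjusted p = 0.118) in NCI-H1650 and -0.13 (adjusted p = 0.472) in NCI-H196. There *CLOCK* stood at 113 and 107 CPM, close to the controls at 118 and 132 CPM. The latter rests on 9 reads, so the order in NCI-H196 is not settled. Over the 3 lines its value was -0.67 (adjusted p = 0.0811), and none of these differences passed.

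IFN-β raised *ARNTL2* in control A549 cells (log2 0.44, adjusted p = 0.00497), the only one of 17 to pass there (4.39% of all genes were higher), and the call was lost without either control library given vehicle. In *ADAR* KO cells IFN-β raised 5 of 17, against 15.5% of all genes: *NFIL3* (log2 1.74, adjusted p = 3.95e-09), *TEF* (log2 1.33, adjusted p = 0.00548), *ARNTL* (log2 0.66, adjusted p = 0.0103), *CLOCK* (log2 0.59, adjusted p = 0.00746) and *ARNTL2* (log2 0.56, adjusted p = 0.000117). This count was 3 without the vehicle-treated ADAR sg1 library and 2 without the IFN-β-treated ADAR sg2 library. The interaction passed for *NFIL3* (log2 1.63, adjusted p = 7.74e-05) and *TEF* (log2 1.70, adjusted p = 0.0418), and 1 of these was lost without the vehicle-treated GFP sg2, vehicle-treated ADAR sg1 or IFN-β-treated ADAR sg2 library.

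Over the 3 dependent lines together *BHLHE41* (log2 1.17, adjusted p = 0.00286), *NFIL3* (log2 0.90, adjusted p = 0.00504), *TEF* (log2 0.86, adjusted p = 0.0391) and *HLF* (log2 1.84, adjusted p = 0.0375) rose and *FBXL21* fell (log2 -2.03, adjusted p = 0.0283) of 19 tested, against 4.28% of all genes higher and 1.02% lower. *HLF*, a D-box activator, had at most 13 reads in any of these 12 libraries, and *FBXL21*, listed as a pseudogene in the annotation used here, had reads almost wholly in HCC366. The count of 5 was 2 without HCC366 GFP sg2 and 3 without any 1 of HCC366 GFP sg1, the 4 NCI-H196 libraries, NCI-H1650 GFP sg1 and NCI-H1650 ADAR sg1. The median log2 fold change of the tested genes of this list was -0.03 for HCC366, 0.07 for NCI-H1650, 0.14 for NCI-H196, -0.04 in A549 with vehicle and 0.26 in A549 with IFN-β.

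**Figure D4:**
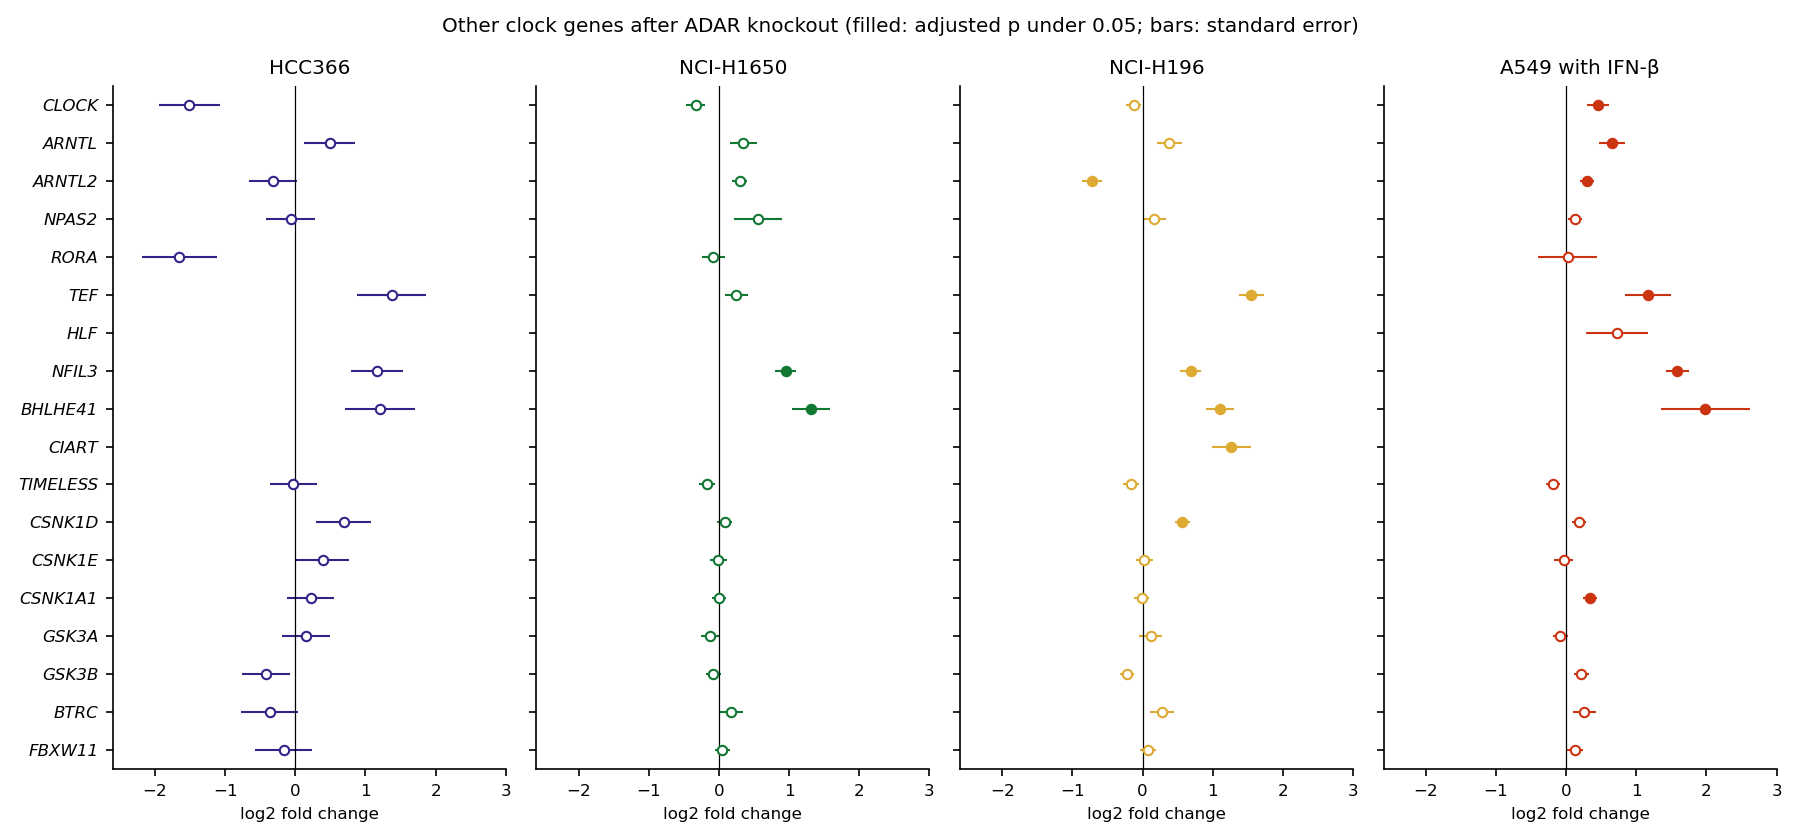
Log2 fold change of *ADAR* KO over control libraries (x axis, bars are the standard error) for 18 other clock genes (y axis) in 4 comparisons. Filled points have an adjusted p under 0.05, and a gene of these 18 with no point was too low to test. *FBXL21* is not drawn, although it was tested in HCC366 (log2 -2.07, adjusted p = 0.145 by edgeR). *NFIL3*, *BHLHE41* and *TEF* are the D-box and E-box regulators on the right, while *CLOCK* lies left of 0 in the 3 dependent lines, with open points, and has a filled point in A549 with IFN-β.

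The levels of the 10 genes in control cells differed between cell lines. Per kilobase (kb) of the canonical transcript, *BHLHE40* had the highest mean level of the 10 in HCC366 (58.6 CPM per kb) and A549 (39.8), *NOCT* in NCI-H1650 (62.6) and *CRY1* in NCI-H196 (31.8). *DBP* was lowest in 3 of the lines and in NCI-H1650 lay beside *PER2* (2.86 and 2.88 CPM per kb), while in HCC366 *PER2* was lowest (3.56). In this comparison A549 had vehicle and the other lines no treatment, so line and handling cannot be told apart. Of the 10 genes, 6 differed between HCC366 and NCI-H1650 (56.7% of all genes did), 8 between HCC366 and NCI-H196 (57.3%), 7 between HCC366 and A549 (64.9%), 7 between NCI-H1650 and NCI-H196 (61.7%), 10 between NCI-H1650 and A549 (68.3%) and 7 between NCI-H196 and A549 (70.5%). These shares are close to the background of all genes, and the 45 calls over the 6 pairs of lines became 20 by DESeq2 and 25 without NCI-H196 GFP sg1. Of the 18 other clock genes tested between lines, *ARNTL2*, *NPAS2* and *TIMELESS* differed in all 6 pairs, *BTRC*, *CIART*, *CLOCK*, *CSNK1A1*, *FBXL21*, *GSK3B*, *RORA* and *TEF* in 5, *BHLHE41*, *CSNK1D*, *FBXW11* and *GSK3A* in 4, *CSNK1E* and *NFIL3* in 3 and *ARNTL* in 1. These 81 calls became 47 by DESeq2 and 53 without NCI-H196 GFP sg1.

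*PER3* separated all 4 lines, from 10.7 and 8.22 CPM per kb in NCI-H196 through 4.94 and 5.34 in HCC366 and 3.10 and 3.81 in NCI-H1650 to 1.43 and 1.28 in A549. The steps were 0.98 (adjusted p = 3.01e-06), 0.64 (adjusted p = 0.00351) and 1.39 (adjusted p = 1.21e-10) on the log2 scale. *NOCT* was highest in NCI-H1650 (66.4 and 58.8 CPM per kb), then HCC366 (48.8 and 44.1), with a step of 0.40 (adjusted p = 0.00961), and lower by a further 1.46 (adjusted p = 4.72e-14) in NCI-H196, which did not differ from A549 beyond the spread (adjusted p = 0.501). *CRY1* was highest in NCI-H196 (32.1 and 31.5 CPM per kb), 1.26 above A549 (adjusted p = 4.58e-14), while A549 and HCC366 did not differ beyond the spread (adjusted p = 0.382) and NCI-H1650 was lowest (0.52 below HCC366, adjusted p = 0.0135). *CRY2* was lowest in A549 (2.71 and 3.21 CPM per kb), 0.90 below NCI-H1650 (adjusted p = 1.11e-05), which was 0.54 below NCI-H196 (adjusted p = 0.0139), and NCI-H196 and HCC366 did not separate (adjusted p = 0.514).

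*PER1* was highest in HCC366 (8.41 and 7.67 CPM per kb), 0.64 above NCI-H1650 on the log2 scale (adjusted p = 0.00333), and the steps from NCI-H1650 to NCI-H196 (adjusted p = 0.121) and on to A549 (adjusted p = 0.267) were within the spread. *NR1D1* was highest in NCI-H196 by the fit, which weights libraries by depth (9.12 CPM per kb and 0 reads), 0.60 above NCI-H1650 (adjusted p = 0.0221), with NCI-H1650, HCC366 and A549 in order and no step between them past the threshold (adjusted p = 0.389 and 0.293). *PER2* ran the other way, highest in A549 (5.16 and 5.37 CPM per kb) and 0.45 above HCC366 (adjusted p = 0.0370), with HCC366, NCI-H196 and NCI-H1650 not separated step by step (adjusted p = 0.633 and 0.303). *NR1D2* in NCI-H1650 and NCI-H196 did not separate (adjusted p = 0.270), and NCI-H196 (16.8 and 8 CPM per kb) was 0.61 above HCC366 by the fit (adjusted p = 0.000728), although its libraries lay on both sides of the HCC366 values of 9.70 and 10.9. HCC366 lay beside A549 (adjusted p = 0.510). *BHLHE40* in HCC366 and NCI-H1650 did not separate (adjusted p = 0.287), with A549 0.46 below NCI-H1650 (adjusted p = 0.000451) and NCI-H196 0.49 below A549 (adjusted p = 0.00246). *DBP* was 1.17 higher in NCI-H1650 than in A549 (adjusted p = 0.00220), and its other neighbouring lines did not separate (adjusted p = 0.271 and 0.641).

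All 16 steps between neighbouring lines that passed also did so without the shallow NCI-H196 library. Without NCI-H196 GFP sg1, which leaves the shallow library as the only control of its line, 4 no longer passed and 3 changed sign, to -0.38 for *NR1D2* against HCC366, and to -0.06 for *CRY2* and -9.22 for *NR1D1* (0 reads) against NCI-H1650. Leaving out 1 control library of another line cost 1 to 4 steps. The steps that passed whichever library was left out were 3, those of *PER1* from HCC366 to NCI-H1650 and of *PER3* and *CRY2* from NCI-H1650 to A549. By DESeq2 the steps that also passed were those of *PER3* from NCI-H1650 to A549 (adjusted p = 0.00145), *CRY1* from NCI-H196 to A549 (adjusted p = 0.00218), *BHLHE40* from NCI-H1650 to A549 (adjusted p = 0.0271) and *NOCT* from HCC366 to NCI-H196 (adjusted p = 0.000296).

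**Figure D5:**
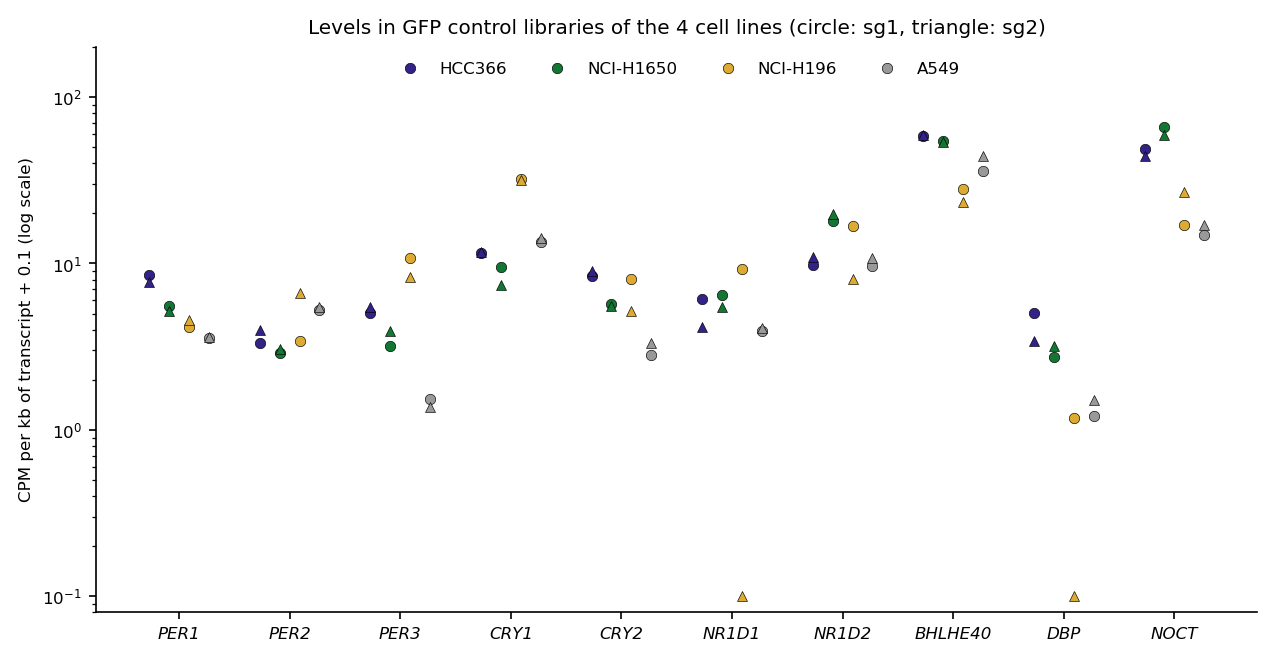
CPM per kb of transcript + 0.1 on a log scale (y axis) for the 10 genes (x axis) in the control libraries of the 4 cell lines, by color; circles are GFP sg1 and triangles GFP sg2. *PER3* runs from 1.28 CPM per kb in A549 to 10.7 in NCI-H196, and the points at 0.1 are counts of 0 in the shallow NCI-H196 library.

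The likeness of profiles was taken as Pearson's r of log2 CPM over the 20 libraries, each cell line centred on its own mean, across 19523 genes. The genes most like *PER1* were *KDM6B* (r = 0.987), a histone demethylase gene, *YY1AP1* (0.982), *NOCT* itself (0.979), *FOSB* (0.976), an AP-1 subunit gene, and *MAFF* (0.973), a small MAF gene. Those most like *NOCT* were *PER1*, *YY1AP1* (0.970) and the early response genes *DUSP1* (0.969), *EGR1* (0.966) and *GADD45B* (0.966). *NR1D1* had other neighbours, *ZNF3* (0.983), *ASXL1* (0.977), *ADIRF-AS1* (0.976), *ITPRIP* and *RSRC2* (both 0.974). Among the 10 genes, *CRY1* and *NOCT* (0.943), *PER1* and *BHLHE40* (0.933) and *NR1D1* and *NR1D2* (0.895) were also alike, whereas *NOCT* was unlike *PER3* (0.0566) and *DBP* (0.0929). The points share libraries, depth and the 10 conditions, so these values describe the libraries and are no test.

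Some of the 10 genes lie over other genes. *NOCT* runs across *ELF2*, an ETS factor gene, without a shared exon base, and *ELF2* rose by less after *ADAR* KO in A549 with IFN-β (log2 0.62, adjusted p = 0.00680), with log2 fold changes of -0.34, 0.29 and -0.06 in HCC366, NCI-H1650 and NCI-H196. *DBP* shares 10.2% of its exon length with *SPHK2*, *BHLHE40* shares 12.8% with its antisense gene *BHLHE40-AS1* and *PER3* shares 10.7% with *UTS2*. *BHLHE40-AS1* and *UTS2* were too low to test, at a mean of at most 1.08 CPM in any group.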

How the data were processed

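RNA from 20 samples was depleted of ribosomal RNA, prepared with a directional kit and sequenced as paired ends. Per the labels and the study's methods, the authors aligned reads to hg19 with STAR and deposited unnormalized read counts per Ensembl gene from HTSeq; STAR, HTSeq and DESeq2 are named in the submitters' processing notes. Their strand setting and annotation release are not given in the sources used here, so reads of overlapping opposite genes may not be told apart. The lines for reads that were ambiguous, without a feature or not uniquely placed were left out of the library sizes. Symbols and lengths came from GENCODE release 44 on GRCh37, which named 55727 of the 58233 identifiers, holding 97.4% of the counts.

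Counts were scaled by TMM within each fit, filtered with filterByExpr by condition and tested with edgeR's quasi-likelihood F-test (edgeR 4.0.16, R 4.3.3), with Benjamini-Hochberg adjustment over all genes tested and a threshold of 0.05. Each dependent line was fitted alone, the 8 A549 libraries together, the 12 libraries of the dependent lines together with a term for line, and the 8 control libraries together for the levels between lines. CPM values use the TMM scaling of the line's own fit. The exceptions are the levels per kb between lines and the lineage markers, which use TMM scaling over all 20 libraries. The tests between lines use the scaling of the control fit, so the same library has different CPM values on these scales. The standard error is the log2 fold change divided by the square root of its F statistic. With a prior count, a fold against a group with 0 reads is no bound. No 2 libraries held identical counts. The scripts were tested on simulated data.

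Alternatives were DESeq2 1.42.0, its size factors in edgeR, no filter, offsets for GC content and length, a replicate block, all libraries in 1 fit, and each library left out in turn. The 10 genes, the list of 21 and all other lists were chosen with earlier results of these data known. The genes named are all 10 members, *ADAR*, every listed clock gene past the threshold (between lines by the number of pairs only), genes overlapping a member, and the 5 most alike to *PER1*, *NOCT* and *NR1D1*; 1 listed clock gene and 1 lineage marker are not reported here. Protein sequences and the sgRNA sequences were not used here.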

Additional observations from a re-analysis of the deposited data

Results flagged for a closer look

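In A549 the effect of *ADAR* KO differed between IFN-β and vehicle for 8 of the genes followed. On the log2 scale the interaction was 2.63 for *PER1*, 2.46 for *NOCT*, 2.16 for *NR1D1*, 1.28 for *BHLHE40*, 1.05 for *CRY1* and 1.03 for *NR1D2*, which belong to the 10 chosen genes and are a description, and 1.70 for *TEF* (adjusted p = 0.0418) and 1.63 for *NFIL3* (adjusted p = 7.74e-05).

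Some genes lay on opposite sides of the controls in both *ADAR* KO libraries of 2 cell lines. These differences between lines were not tested. With 2 libraries a group, both *ADAR* KO libraries lay above both controls for 25.1% to 26.2% of all genes tested in the dependent lines. *PER2* had a log2 fold change of 1.26 in HCC366 and 0.43 in NCI-H1650 and -0.0529 in A549 with vehicle. In the last, its *ADAR* KO libraries, at 27.1 and 25.6 CPM, lay close to the controls at 27.2 and 27.4 CPM. *PER3* had 0.34 in NCI-H1650 and 0.78 in NCI-H196 and -0.44 in A549 with vehicle. *NR1D2* had 0.71 for HCC366, 0.53 for NCI-H1650 and 0.89 for NCI-H196 and -0.13 in A549 with vehicle. *ARNTL2* had 0.30 in NCI-H1650 and 0.18 in A549 with vehicle against -0.32 in HCC366 and -0.72 in NCI-H196. *NPAS2*, a paralog of *CLOCK*, had 0.56 in NCI-H1650 and 0.17 in NCI-H196 against -0.0621 in A549 with vehicle. *TIMELESS* had 0.0794 in A549 with vehicle against -0.17 in NCI-H1650. *CSNK1D* had 0.56 in NCI-H196 against -0.0780 in A549 with vehicle.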

How the results depend on the processing

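The same sgRNA number names different sgRNAs for GFP and ADAR, so the numbers do not pair libraries between the 2 targets. Deviations of same-numbered libraries correlated at -0.253 for HCC366, -0.0163 for NCI-H1650, -0.0209 for NCI-H196 and -0.0784 to 0.0368 in A549. Within 1 target in A549 the number names the same sgRNA with vehicle and with IFN-β, a pairing that the main fit left out. With a block for each sgRNA the same members of the 10 genes passed, 1 for IFN-β in controls, 7 for IFN-β in *ADAR* KO cells and 6 in the interaction. With the replicate block by number, 4 of the 10 genes passed in NCI-H196 in place of 9 and 4 over the 3 dependent lines in place of 8. Of the other clock genes 1 passed in HCC366 in place of 0, 1 in NCI-H196 in place of 6 and 2 over the 3 lines in place of 5. Among all genes 115 passed in NCI-H196 in place of 2513, 362 over the 3 lines in place of 876 and 300 in HCC366 in place of 139. With crossed numbers in HCC366, chosen after seeing the data, 6 of the 10 genes and 2 other clock genes passed, with 960 of all 11135 genes. By DESeq2 0 of the 10 genes and 0 other clock genes passed in NCI-H196, with 11 of 33120 genes. In NCI-H1650 1 other clock gene passed in place of 2 (412 of 33368 genes), and in the interaction 1 in place of 2 (754 of 34503). For IFN-β in A549 controls 0 of the 10 genes passed in place of 1 (782 of 34503). Between lines 20 member calls and 47 calls of other clock genes passed in place of 45 and 81, and each pair had fewer calls among all genes. With GC and length offsets 7 of the 10 genes and 3 other clock genes passed in HCC366, with 1055 of all 11135 genes. Without a filter 2 other clock genes passed there, with 903 of 29655 genes. With all 20 libraries in 1 fit, 19523 genes were tested. In HCC366 7 of the 10 genes and 6 other clock genes passed, with 3701 of all genes. In NCI-H1650 1 other clock gene passed (159 of all genes), and in NCI-H196 3 of the 10 genes and 1 other clock gene (98). After *ADAR* KO in A549 with IFN-β 3 other clock genes passed (1087 of all genes). For IFN-β in controls 0 and 0 passed (531 of all genes). For IFN-β in *ADAR* KO cells 2 other clock genes passed (2067), and 1 in the interaction (164). In this fit *FBXL21* over the 3 lines went from -2.03 to 0.11. Leaving out 1 library at a time gave, for the 10 genes, 0 to 8 calls in HCC366, 1 to 9 in NCI-H196, 0 to 1 for IFN-β in controls, 4 to 9 over the 3 lines and 25 to 45 between lines, and for the other clock genes 0 to 12 in HCC366, 0 to 7 in NCI-H196, 1 to 6 in A549 with IFN-β, 0 to 1 and 2 to 7 for IFN-β in control and *ADAR* KO cells, 1 to 2 in the interaction, 2 to 6 over the 3 lines and 53 to 84 between lines. The log2 fold change of *PER2* in NCI-H196 ran from -0.26 (without GFP sg1) to 1.00. The number of all genes passing also moved with the setting and with the library left out, so these counts do not describe the listed genes alone. The cause of these shifts was not tested. Each comparison rests on 2 libraries a group, and in NCI-H196 1 of the controls has 62679 reads.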
